A study of Arabidopsis thaliana with 6 samples.

Results

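The genes described here encode the core of peroxisomal fatty acid beta-oxidation in Arabidopsis thaliana. They were taken by gene identifier, 10 of the 38194 genes listed: the acyl-CoA oxidases ACX1 to ACX4, the multifunctional proteins MFP2 and AIM1, the 3-ketoacyl-CoA thiolases KAT1, KAT2 and KAT5, and the importer PXA1. RNA was compared in whole seedlings between Col-0, the standard laboratory accession, labelled as wild type, and sqtl1 RNAi plants in the same Col-0 background. In the latter, RNA interference is directed at sqtl1. Each group held 3 biological replicates, grown at 16 h light and 8 h dark on a medium with sucrose and collected 7 days after stratification, with no other treatment labelled for either group. The labels name neither a gene identifier for sqtl1, nor the promoter of the RNAi construct, nor the number of independent lines, and the knockdown was not analysed here.

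Beta-oxidation shortens fatty acids in the peroxisome. PXA1, an ABC transporter, brings the substrates in, long-chain acyl-CoA synthetases activate them, an acyl-CoA oxidase introduces a double bond, a multifunctional protein hydrates and dehydrogenates the product, and a thiolase releases acetyl-CoA. In germinating seedlings the pathway turns seed oil into carbon for growth through the glyoxylate cycle, and later it also serves in making jasmonate and in turning indole-3-butyric acid into auxin.

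Beta-oxidation transcripts did not move as a block in the RNAi line. Of the 10 genes, 4 were higher (ACX1, ACX2, MFP2 and KAT2), 1 was lower (KAT5), and 5 did not pass the test (limma, Benjamini-Hochberg adjusted p under 0.05). Across all 19458 genes tested, 25.2% were called higher and 27.5% lower, so the counts among the 10 are read against a background in which 52.6% of genes were called. For the same 5 genes the ranges of the groups were separate, against 64.1% of all genes tested. All RNAi libraries lay above all Col-0 libraries for 4 of the 10 genes, against 31.1% of genes tested, and below them for 1, against 33%. The median log2 fold change was 0.15 over the 10 genes and -0.01 over all genes tested. All 10 genes passed the filter of a mean of 1 RPKM (reads normalised by the authors to gene length in kilobases and to a library total). Fold changes on the log2 scale are of RPKM + 1, whereas ratios are of mean RPKM. The deposited totals were not equal: RPKM times length summed to 1051600 to 1071469 in Col-0 libraries and to 926820 to 979309 in RNAi libraries. As deposited, the 10 genes together summed to 423.5 to 427.9 RPKM in Col-0 and to 597.4, 564.2 and 485.8 RPKM in RNAi replicates 1 to 3. As a share of each library's own sum of RPKM times length, they took between 0.0921% and 0.0948% of a Col-0 library. On that scale they took 0.116%, 0.144% and 0.153% of the RNAi libraries, replicate 3 being the lowest. These shares rescale libraries to an equal total, unlike the RPKM values and fold changes given here.

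**Figure D1:**
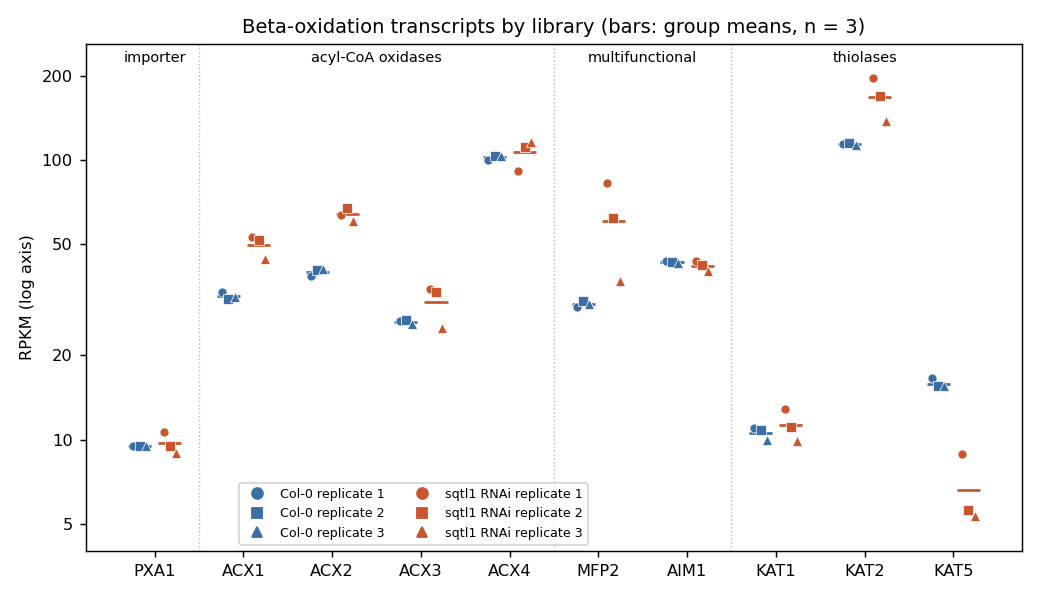
RPKM of the 10 beta-oxidation genes (log axis) in each of 3 Col-0 and 3 sqtl1 RNAi libraries, ordered by step, with horizontal bars for group means. The RNAi points of ACX1, ACX2, MFP2 and KAT2 all lie above Col-0 and those of KAT5 all lie below, whereas the groups overlap for PXA1, ACX3, ACX4, AIM1 and KAT1.

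The enzymes enter the peroxisome after synthesis, and their coding sequences were searched for common forms of the known targeting signals. Those found are printed because the 4 genes that rose include both import classes. The C-terminal signal, PTS1, is a tripeptide read by the receptor PEX5, and the N-terminal signal, PTS2, is a nonapeptide read by PEX7. The last 30 coding bases of the genes with a PTS1 tripeptide follow, read from the RefSeq assembly TAIR10.1 on the coding strand, with the 3 targeting codons in capitals before the stop codon.
ACX1: cagcagcaacttcgtaccGCTAGGCTCtga
ACX4: ttcaaaccggctacacgtAGCCGTCTCtaa
MFP2: cccgtgaaacaagccagcTCACGGTTGtaa
AIM1: gaatcgaaatcgtcgaggTCCAAATTGtga

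The PTS2 codons of the thiolases and ACX2, from the same assembly and strand, are given with the first and last pairs of codons, which are the conserved ones, in capitals. The pattern begins at codon 7 in each thiolase and at codon 23 in ACX2.
KAT1: AGACAAaggatactgcttcgtCATCTT
KAT2: AGACAAcgcgttcttcttgagCATCTC
KAT5: AGACAAaagatattgcttcgtCATCTC
ACX2: CGGATCcaacgattgtctttaCACCTA

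Neither signal was found, in the forms searched, in the coding sequences of ACX3 and PXA1, the latter a protein of the peroxisomal membrane. The search took a fixed list of PTS1 tripeptides and a single strict PTS2 pattern near the N-terminus. That pattern began with arginine and then leucine, isoleucine or glutamine, and ended with histidine and leucine. Variant signals would have been missed, so ACX3 is not shown to lack a signal. The annotation gives 2 coding forms of KAT5, of which 1 holds the PTS2 codons. The form without them is known to stay in the cytosol. RPKM was given per gene, so the forms of KAT5 could not be told apart. Of the PTS1 genes, ACX1 and MFP2 rose and ACX4 and AIM1 did not pass the test, and of the PTS2 genes, ACX2 and KAT2 rose, KAT5 fell and KAT1 did not pass.

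PXA1, the importer, overlapped between groups. PXA1 (AT4G39850, chromosome 4, 18488434 to 18497266 in TAIR10.1) was at 9.50, 9.46 and 9.52 RPKM in Col-0 and at 10.6, 9.52 and 8.93 RPKM in RNAi replicates 1 to 3. The RNAi values lay on both sides of Col-0. The log2 fold change was 0.02 (SE 0.07, limma adjusted p = 0.779).

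Among the acyl-CoA oxidases, ACX1 and ACX2 rose, and ACX3 and ACX4 did not pass the test. ACX1 (AT4G16760, chromosome 4, 9424534 to 9428895), which acts on medium and long chains, was at 33.8, 31.9 and 32.3 RPKM in Col-0 and at 53.2, 51.7 and 44.4 RPKM in the RNAi replicates. Every RNAi library lay above every Col-0 library. Its mean rose 1.52-fold, from 32.7 ± 0.993 to 49.7 ± 4.72 RPKM (SD, n = 3 libraries; log2 fold change 0.59, SE 0.08, limma adjusted p = 0.00139).

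ACX2 (AT5G65110, chromosome 5, 26009521 to 26012684), the long-chain oxidase, was at 38.5, 40.5 and 40.7 RPKM in Col-0 and at 63.4, 67.5 and 60.7 RPKM in the RNAi replicates. The groups were well apart, and of the 5 called among the 10 genes, ACX2 had the smallest relative spread between RNAi libraries. The rise was 1.60-fold (log2 fold change 0.67, SE 0.06, limma adjusted p = 0.000389), with the lowest adjusted p of the 10 genes.

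ACX3 (AT1G06290, chromosome 1, 1922208 to 1926278), the medium-chain oxidase, was at 26.5, 26.8 and 25.9 RPKM in Col-0. RNAi replicates 1 and 2 were above these at 34.5 and 33.9 RPKM, and replicate 3 was below them at 25.2 RPKM. The log2 fold change of 0.22 (SE 0.12) did not pass the test (limma adjusted p = 0.165), but without RNAi replicate 3 it was 0.36 and passed (adjusted p = 0.000971).

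ACX4 (AT3G51840, chromosome 3, 19225360 to 19229341), the short-chain oxidase and the most abundant of the 4, was at 100.2, 103.7 and 103.3 RPKM in Col-0. Here the RNAi libraries spread the other way, at 91.6 RPKM in replicate 1 and at 111.6 and 116.3 RPKM in replicates 2 and 3. The log2 fold change was 0.05 (SE 0.09, limma adjusted p = 0.686). Without RNAi replicate 1 it was 0.15 and passed the test (adjusted p = 0.0351), and without replicate 3 it was -0.02 (adjusted p = 0.874).

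The 2 further oxidase genes of the family were lower in level than ACX1 to ACX4. ACX5 (AT2G35690), the closest relative of ACX1, was at 6.68 ± 0.191 RPKM in Col-0 and 6.33 ± 0.0462 in RNAi plants and did not pass the test (limma adjusted p = 0.267). ACX6 (AT1G06310), which lies 373 bases beyond ACX3, was under the filter in both groups (0.323 ± 0.0321 and 0.150 ± 0.0200 RPKM) and was not tested. The coding sequences of ACX3 and ACX6 were 88.8% identical over 2028 aligned bases, with a longest shared run of 63 bases. The deposited share of multiply mapping reads for ACX3 was 0.0149. For the other 9 genes it was 0 or, for KAT2, 1.21e-05.

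The multifunctional proteins act at one step and behaved differently. MFP2 (AT3G06860, chromosome 3, 2161735 to 2166357), the form that prefers longer chains and is prominent in seedlings that use oil, was at 29.8, 31.2 and 30.6 RPKM in Col-0. In the RNAi line it was at 82.8, 62.2 and 36.8 RPKM in replicates 1 to 3. All 3 lay above Col-0, but replicate 3 only by 1.20-fold of the Col-0 mean, against 2.71-fold and 2.04-fold in the others. The mean was 1.98-fold higher (60.6 ± 23.0 against 30.5 ± 0.715 RPKM, log2 fold change 0.89, SE 0.27, limma adjusted p = 0.0292).

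The call of MFP2 was lost under 5 alternatives in which its log2 fold change stayed between 0.84 and 0.91. Without Col-0 replicate 1, 2 or 3 the log2 fold change was 0.87, 0.91 and 0.89 (limma adjusted p = 0.0861, 0.0758 and 0.0807). It was 0.84 without RNAi replicate 2 (adjusted p = 0.0892) and 0.89 with no filter on low genes (adjusted p = 0.0973). The call was kept without RNAi replicate 1, at 0.63 (adjusted p = 0.0344), and without RNAi replicate 3, at 1.21 (adjusted p = 0.00036).

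AIM1 (AT4G29010, chromosome 4, 14297044 to 14302287), named for the abnormal inflorescence of its mutant, was at 43.5, 43.1 and 42.8 RPKM in Col-0 and at 43.5, 42.1 and 39.9 RPKM in the RNAi replicates. The values overlapped and their log2 fold change was -0.04 (SE 0.05, limma adjusted p = 0.483). It was 0.12 when libraries were rescaled to an equal total and 0.01 after quantile normalization, with no call on any of these scales. In Col-0, AIM1 was the more abundant of the pair in all 3 libraries. MFP2 made up 40.7%, 42.0% and 41.7% of their summed RPKM in Col-0 and 65.6%, 59.6% and 47.9% in the RNAi replicates. The groups did not overlap, and the mean share was 16.3 percentage points higher in the RNAi line (two-sided exact permutation p = 0.1, the smallest that 3 against 3 libraries can give).

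Among the thiolases, which close each round of the spiral, KAT2 rose and KAT5 fell. KAT2 (AT2G33150, chromosome 2, 14047478 to 14051400), the main thiolase of oil use after germination, was at 114.1, 115.0 and 113.1 RPKM in Col-0 and at 196.0, 169.1 and 138.4 RPKM in the RNAi replicates. It was the most abundant of the 10 transcripts in both groups. The rise was 1.47-fold (log2 fold change 0.54, SE 0.12, limma adjusted p = 0.0108), with replicate 3 again nearest to Col-0.

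KAT5 (AT5G48880, chromosome 5, 19814395 to 19817955), the thiolase with the 2 forms described above, was at 16.57, 15.49 and 15.55 RPKM in Col-0 and at 8.92, 5.62 and 5.34 RPKM in the RNAi replicates. All RNAi libraries lay below all Col-0 libraries. The mean was 2.39-fold lower (6.63 ± 1.99 against 15.9 ± 0.607 RPKM, log2 fold change -1.18, SE 0.17, limma adjusted p = 0.00191). It was the only one of the 10 called lower, in the comparison as reported and in each of the 15 alternatives run.

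KAT1 (AT1G04710, chromosome 1, 1321885 to 1324840), a low thiolase whose coding sequence is 84.6% identical to that of KAT2, was at 11.0, 10.8 and 9.93 RPKM in Col-0 and at 12.9, 11.1 and 9.91 RPKM in the RNAi replicates. The groups overlapped (log2 fold change 0.08, SE 0.09, limma adjusted p = 0.527). The longest run of bases shared by KAT1 and KAT2 was 53, against reads of 150 bases. The coding sequences of KAT5 and KAT2 were 71.2% identical, and those of MFP2 and AIM1 63.5%.

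The make-up of each step was compared next. KAT2 held 81.2 ± 0.574% of summed thiolase RPKM in Col-0 and 90.4 ± 0.573% in RNAi plants, while KAT5 held 11.3 ± 0.372% and 3.53 ± 0.537%. KAT2 held 90.0%, 91.0% and 90.1% in RNAi replicates 1 to 3, although its level differed between them. Among the oxidases, ACX4 held 50.9 ± 0.432% in Col-0 and 42.4 ± 4.71% in RNAi plants, ACX2 19.8 ± 0.405% and 25.4 ± 0.745%, and ACX1 16.2 ± 0.662% and 19.8 ± 1.97%. The share of ACX3 was 13.1 ± 0.259% and 12.4 ± 2.04% and overlapped. For the other 8 of the 9 shares the groups did not overlap and the two-sided exact permutation p was 0.1, the smallest possible here (0.113 adjusted over the 9 shares). The shares of a step sum to 100%, so they are not independent of each other.

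**Figure D2:**
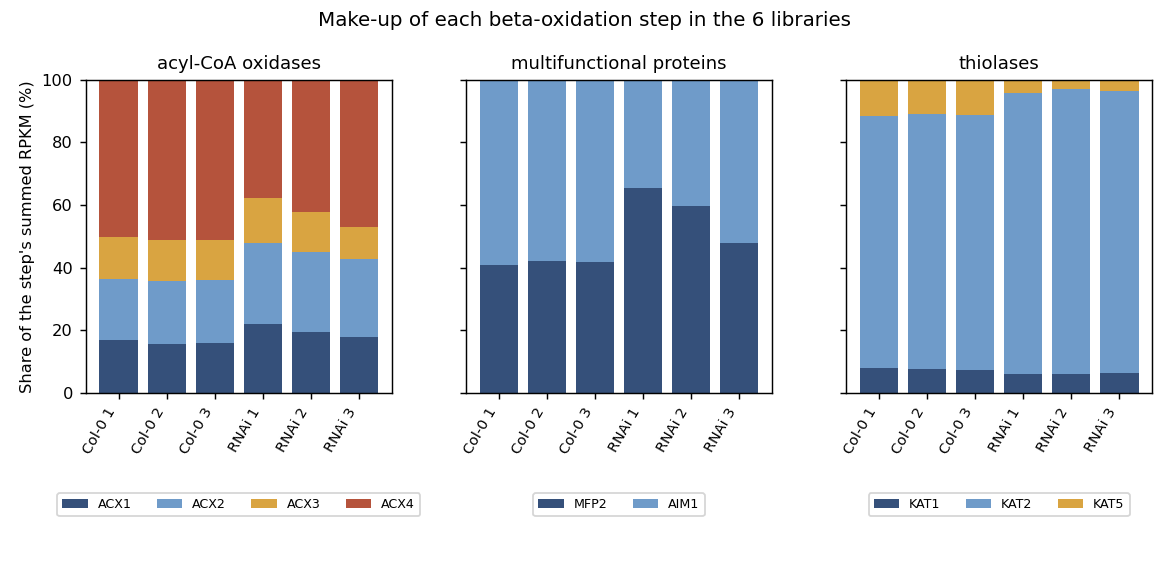
Share of the summed RPKM (%) of each beta-oxidation step held by each gene, in the 3 Col-0 and 3 sqtl1 RNAi libraries. The MFP2 share is 40.7% to 42.0% in Col-0 and 47.9% to 65.6% in the RNAi line, and the KAT5 share falls from 11.3% to 3.53% on average.

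Summed over its genes, each step was higher in the RNAi line. The oxidases summed to 201.3 ± 2.06 RPKM in Col-0 and 251.3 ± 11.7 in RNAi plants. The multifunctional proteins summed to 73.7 ± 0.591 and 102.4 ± 24.8 RPKM, 1.39-fold, and the thiolases to 140.6 ± 1.74 and 185.8 ± 32.1 RPKM, 1.32-fold. For none of the 3 sums did the groups overlap (two-sided exact permutation p = 0.1 for each, the smallest possible). Among single genes tested, the groups did not overlap for 64.1%. In RNAi replicate 3 the multifunctional proteins summed to 76.7 RPKM, against 73.3 to 74.3 in Col-0. The thiolases there summed to 153.6 RPKM, against 138.6 to 141.7, and the oxidases to 246.6 RPKM, against 199.0 to 202.7.

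The order of levels shifted in the middle of the range. In Col-0 it ran KAT2, ACX4, AIM1, ACX2, ACX1, MFP2, ACX3, KAT5, KAT1 and PXA1, and no neighbours overlapped in their ranges. In the RNAi line KAT2 and ACX4 stayed first, ACX2, MFP2, ACX1, AIM1 and ACX3 followed by their means. The range of MFP2 overlapped those of ACX2, ACX1 and AIM1, and in RNAi replicate 3 AIM1 was above MFP2. KAT1 and PXA1 overlapped, and KAT5 was the lowest of the 10.

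The RNAi libraries differed among themselves, and not in these genes alone. On the first principal component of log2(RPKM + 1) over the genes tested, with 82.4% of the variance, RNAi replicates 1, 2 and 3 stood at 49.8, 42.6 and 21.7 and the Col-0 libraries between -38.8 and -36.9, so replicate 3 was the nearest to Col-0. Among the 10 genes, replicate 1 was the highest of the 3 RNAi libraries for 8 of the 10 genes, and replicate 3 the lowest for 9. ACX4 went against this, with replicate 3 highest, and ACX2 was highest in replicate 2. The coefficient of variation was larger in the RNAi line than in Col-0 for all 10 genes, from 4.23% for AIM1 to 38.0% for MFP2, against 0.322% to 5.58% in Col-0. Over the whole table, the mean chi-square per gene between 2 libraries was 56.9 to 183.3 for RNAi pairs and 8.05 to 12.3 for Col-0 pairs. The shares of all genes tested with the larger RNAi spread or with these replicate orders were not computed, so these counts are not read as particular to the 10. KAT5, although lower than in Col-0, was also highest in replicate 1, so there the library with the highest values of the other genes had the smallest loss.

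**Figure D3:**
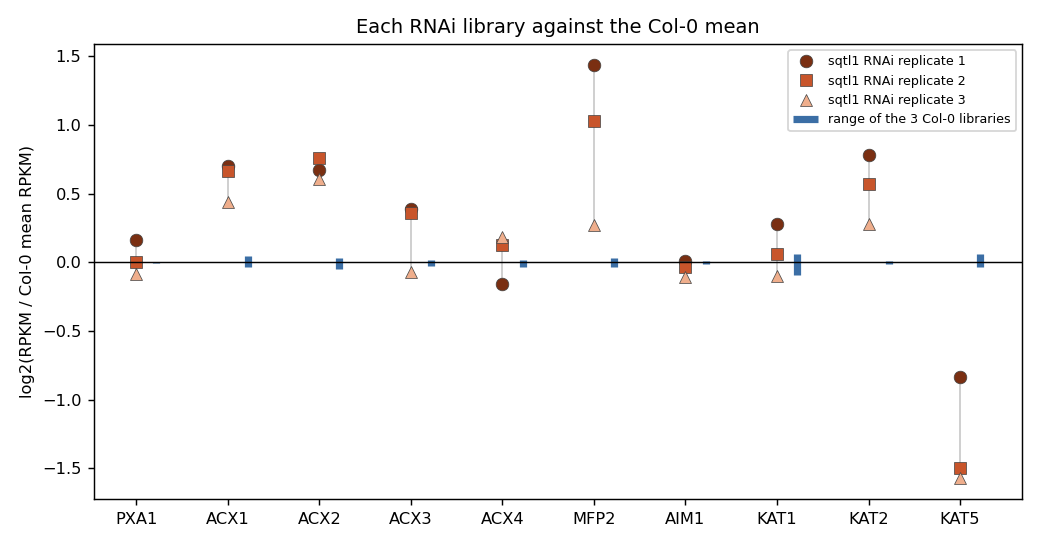
Log2 ratio of each RNAi library to the Col-0 mean RPKM for the 10 genes (symbols: the 3 RNAi replicates; blue bars: range of the 3 Col-0 libraries). RNAi replicate 1 is the highest of the 3 for 8 genes and replicate 3 the lowest for 9, and the spread is widest for MFP2, at 2.71, 2.04 and 1.20 times the Col-0 mean.

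Markers of other tissues and stages moved with the groups. Both shoot and root were represented: summed RPKM of 4 leaf genes was 38229 to 40327 in Col-0 and 15412 to 25820 in the RNAi line, and PYK10, an abundant root protein gene, was at 3585 ± 88.1 and 3287 ± 650 RPKM. All 4 leaf genes (RBCS1A, CAB1, LHB1B1 and LHCA1) were called lower. Of the 5 root genes, SHR and SCR were higher, CASP1 and CASP2 lower, and PYK10 was not called. Of 11 seed and embryo genes, 8 were tested and all 8 were higher, and they entered the test through their RNAi values. The seed genes summed to 0.610 to 3.25 RPKM in Col-0 and to 192.4, 54.5 and 28.9 RPKM in RNAi replicates 1 to 3, and CRB, a cruciferin gene, was listed at 0 in all 3 Col-0 libraries. The order of the RNAi libraries in this sum was that of 8 of the 10 beta-oxidation genes, all but ACX2 and ACX4, whether called or not. It was also their order on the first principal component. Among the 8 is KAT5, where this order put replicate 1 nearest to Col-0 and replicate 3 farthest, unlike in the seed sum. The share of all genes tested with this order was not computed. The part of these tissues or stages in the beta-oxidation values was not tested, and in whole seedlings a smaller share of a cell type and less RNA per cell cannot be told apart.

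The genes around the core were taken from lists of the same pathway and organelle. Of 60 such genes, 57 were tested, 13 were higher, 11 lower and 33 not called, that is 22.8% higher and 19.3% lower, beside 25.2% and 27.5% of all genes tested. With libraries rescaled to an equal total, 21 were higher and 6 lower. The count of 11 lower genes dropped to 7 when Col-0 replicate 1 or Col-0 replicate 3 was left out and to 6 when RNAi replicate 2 was.

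Lipases and acyl-CoA synthetases stand before the oxidases. Of 6 genes, 5 were tested, with 2 higher and 1 lower. LACS7, a peroxisomal acyl-CoA synthetase, was at 9.63, 9.31 and 9.60 RPKM in Col-0 and at 24.61, 19.97 and 14.96 RPKM in the RNAi replicates. That is 2.09-fold higher (log2 fold change 0.96, SE 0.16, limma adjusted p = 0.00332), and all RNAi libraries lay above Col-0. LACS6, its partner, rose 1.22-fold (limma adjusted p = 0.0192). SDP1, the lipase that opens seed oil breakdown, was at 19.7 ± 0.280 and 16.1 ± 2.39 RPKM and did not pass the test (limma adjusted p = 0.054). AT4G24160, the Arabidopsis homolog of the animal lipase activator CGI-58, fell 1.39-fold (adjusted p = 0.00138).

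The auxiliary enzymes handle double bonds and unusual substrates. Of 10 tested, 2 were higher, 1 lower and 7 not called. DCI1, a dienoyl-CoA isomerase, rose 1.38-fold (limma adjusted p = 0.00757) and IBR1, which acts on indole-3-butyric acid, 1.19-fold (adjusted p = 0.0262). ECH2, an enoyl-CoA hydratase, fell 1.14-fold (adjusted p = 0.0134). IBR3, another indole-3-butyric acid gene, was at 14.0 ± 0.157 and 14.2 ± 0.464 RPKM.

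Carriers and malate dehydrogenases supply cofactors. Of 5 tested, PNC2, an ATP carrier of the peroxisome, was higher (1.33-fold, limma adjusted p = 0.0223) and PMDH2 was lower. PMDH2 was at 317.0, 284.7 and 275.0 RPKM in Col-0 and at 139.9, 160.4 and 201.3 RPKM in the RNAi replicates, 1.75-fold lower on average (adjusted p = 0.00357). PMDH1, its paralog, was at 67.8, 48.6 and 37.0 RPKM in the RNAi replicates against 36.8 ± 0.916 in Col-0 and did not pass (adjusted p = 0.116).

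The glyoxylate cycle uses the acetyl-CoA that the thiolases release. Of 6 glyoxylate cycle and gluconeogenesis genes, 5 were tested and 4 were higher. ICL, isocitrate lyase, was at 6.14, 3.07 and 1.58 RPKM in Col-0 and at 261.1, 184.9 and 55.7 RPKM in the RNAi replicates. MLS, malate synthase, was at 165.9, 93.3 and 15.4 RPKM in the RNAi replicates against 3.08 ± 0.702 in Col-0. PCK1, which starts the path from oxaloacetate to sugar, rose 2.52-fold (limma adjusted p = 0.000762). CSY3, a peroxisomal citrate synthase, rose 1.76-fold (adjusted p = 0.00582), whereas CSY2 was not called. CSY1 was listed at 0 in every library. The ratios of ICL and MLS between group means were 46.5 and 29.7, against 1.98 or less for the 10 beta-oxidation genes. This difference between steps was not itself tested.

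The catalases, which remove the hydrogen peroxide that the oxidases make, split. CAT3 rose 2.47-fold, from 506.5 ± 26.6 to 1249 ± 35.2 RPKM (limma adjusted p = 0.000201), CAT1 fell 1.63-fold (adjusted p = 0.000926), and CAT2 (AT4G35090) overlapped between groups (adjusted p = 0.457).

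Import and division genes were mostly not called. Of 18 import and protease genes tested, 2 were higher, 2 lower and 14 not called, with log2 fold changes from -0.23 to 0.33. PEX19-1 and PEX7, the PTS2 receptor, rose 1.27-fold and 1.17-fold (limma adjusted p = 0.00132 and 0.00802), and PEX6 and PEX14 fell 1.19-fold and 1.13-fold (adjusted p = 0.00901 and 0.0279). PEX5, the PTS1 receptor, was at 17.5 ± 0.341 and 19.3 ± 0.678 RPKM and did not pass (adjusted p = 0.051). Of 5 division genes, 1 was higher, 1 lower and 3 not called, and the higher one, PEX11A, rose 1.47-fold (adjusted p = 0.0083). Of 5 photorespiration genes, which serve the peroxisomes of green leaves, 4 were lower and none higher: AGT1, GGT1, HPR and GOX1 fell 1.60-fold, 1.56-fold, 1.34-fold and 1.28-fold (adjusted p = 0.0176, 0.00766, 0.0321 and 0.0137). The leaf markers given above were lower in the same libraries, and their part in the photorespiration values was not tested.

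**Figure D4:**
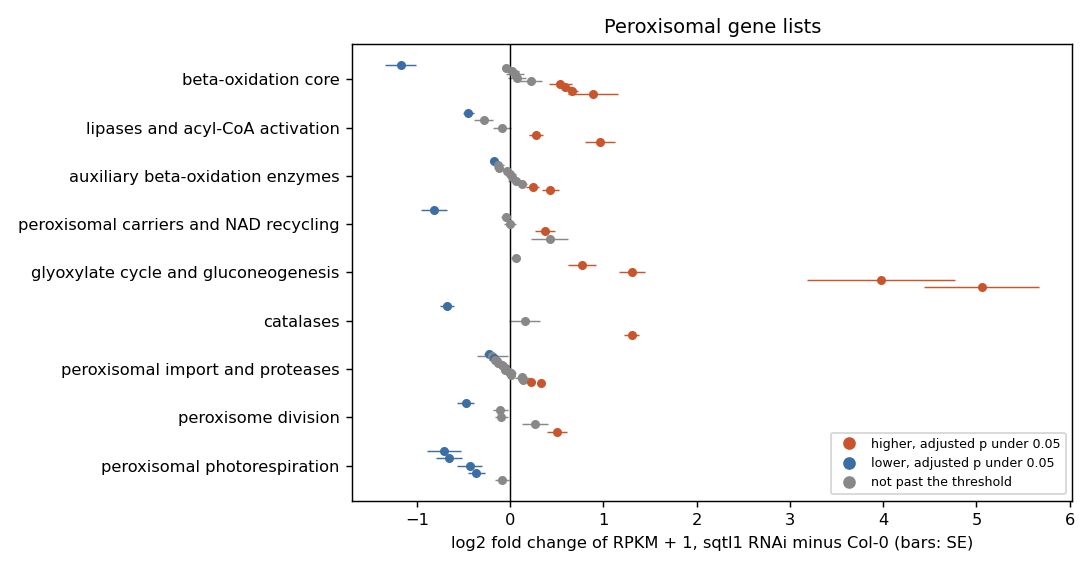
Log2 fold change of RPKM + 1 (sqtl1 RNAi minus Col-0, bars: SE) for the tested genes of the beta-oxidation core and 8 lists around it, coloured by call. ICL and MLS lie at 5.06 and 3.98, outside the range of the beta-oxidation core, which runs from -1.18 to 0.89.

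The gene whose pattern over the 6 libraries was compared with all others was KAT5, as the called gene with the largest log2 fold change. Among 13933 genes of at least 5 RPKM, the 5 with the highest Pearson correlation of log2 values were UGT84A3, a UDP-glycosyltransferase gene (r = 0.999), PDE312 (r = 0.998), AT3G57157 (r = 0.998), SPS1F, a sucrose phosphate synthase gene (r = 0.997), and PDE340 (r = 0.997). UGT84A3 was at 8.95, 7.75 and 8.19 RPKM in Col-0 and at 3.81, 2.08 and 2.04 RPKM in the RNAi replicates. The 6 points fall into 2 groups, and 76 genes reached r above 0.99, so these are descriptions.

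The bases upstream of 3 genes are shown: ACX1, the only 1 of the 10 genes with a G-box, and MFP2 and AIM1, which act at one step. No link between upstream bases and expression was tested. Each is the 250 bases before the RefSeq gene start in TAIR10.1, on the gene's strand, with the G-box in capitals. ACX1 is chr4:9428896-9429145 on the minus strand, MFP2 is chr3:2161485-2161734 on the plus strand and AIM1 is chr4:14302288-14302537 on the minus strand.
ACX1: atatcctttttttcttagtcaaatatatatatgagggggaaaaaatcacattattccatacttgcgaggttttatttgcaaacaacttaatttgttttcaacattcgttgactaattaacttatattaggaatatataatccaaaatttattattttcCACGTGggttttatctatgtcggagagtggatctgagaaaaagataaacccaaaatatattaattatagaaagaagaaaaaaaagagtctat
MFP2: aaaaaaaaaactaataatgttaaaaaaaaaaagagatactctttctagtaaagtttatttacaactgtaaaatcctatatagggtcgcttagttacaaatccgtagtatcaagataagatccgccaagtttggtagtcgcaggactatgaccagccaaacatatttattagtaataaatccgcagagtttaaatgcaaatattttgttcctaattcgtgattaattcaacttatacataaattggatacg
AIM1: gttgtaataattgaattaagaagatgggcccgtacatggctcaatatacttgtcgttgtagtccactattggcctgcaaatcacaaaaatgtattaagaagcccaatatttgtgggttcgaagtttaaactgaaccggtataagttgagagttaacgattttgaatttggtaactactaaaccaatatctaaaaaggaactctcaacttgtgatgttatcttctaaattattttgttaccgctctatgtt

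On either strand, the G-box (CACGTG) was found upstream of 1 of the 10 genes, ACX1, with its first base 92 bases before the gene start, against 6.49% of 27443 protein-coding genes. The RY element (CATGCA), known from seed genes, was in 0 of the 10 and in 8.43% of all. The TATA box (TATAAA) was in 2 of the 10, ACX4 and PXA1, and in 47.3% of all, and the W-box core (TTGAC) was in 3, ACX1 to ACX3, and in 44.9% of all. None of these motifs contains another. No match in this window says only that these letters are absent from it.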

How the data were processed

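Poly(A) RNA of whole seedlings was sequenced as strand-marked paired libraries, per the labels' protocols. The authors deposited RPKM values per gene with gene length and, per the file headers, a fraction for multiple mapping, read here as the share of reads mapping to several places. Per the submitters' processing notes, Trimmomatic 0.39, Bowtie2 2.2.6 and TAIR10 were used; which tool did what, the gene set and the counting with its use of strand are not stated in these notes. Of 38199 lines, 5 named no gene and were left out.

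Values of short, low genes lay on equal steps after an offset of 0.5 steps. The steps gave depths of 75.9 to 99.7 M (mega) steps per library, where a step may be a read end. The smallest member value, KAT5 in RNAi replicate 3, stood for about 881 steps (counting error 3.37% if steps are independent counts, which covers counting only). If steps are read ends of pairs, the counting error is larger.

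The test was limma (version 3.58.1, R version 4.3.3) on log2 of RPKM + 1, its variance prior trended on expression. It covered 19458 genes whose mean reached 1 RPKM. Benjamini-Hochberg adjustment ran over all of them, and every adjusted p is from limma. No 2 libraries agreed within sampling noise. Nothing in the labels pairs replicate numbers.

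The 10 genes and all lists were chosen with earlier results of these data known. Named genes are the 10, ACX5 and ACX6, up to 4 called genes per list and direction, and the 5 most like KAT5, except 1 gene that is not reported here; SDP1, IBR3, PMDH1, CSY1, CSY2, CAT2, PEX5, PYK10 and CRB, the promoter motifs and the sequences shown were chosen after values were seen. All 90 listed genes matched the RefSeq table of TAIR10.1, which gave coordinates. For 7 of the 10 genes the deposited length equalled the RefSeq transcript; for KAT5 it was 1838 against 1615 bases. Alternatives changed the pseudocount, filter, scaling and variance prior, added a replicate block and left out each library.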

Additional observations from a re-analysis of the deposited data

How the results depend on the processing

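The 4 higher genes ACX1, ACX2, MFP2 and KAT2 and the lower KAT5 kept their direction under all 15 alternatives, and the calls of ACX1, ACX2, KAT2 and KAT5 held under all 15 (adjusted p in limma at most 0.01, 0.00401, 0.0425 and 0.0126). MFP2 was called under 10 of 15 (adjusted p from 0.00036 to 0.0973), and the cause was not tested. The count of higher genes among the 10 was 3 to 5 and that of lower genes 1 when each library was left out. Over the whole table, leaving out a library gave 3515 to 5515 higher and 3975 to 6061 lower genes, and among the 57 genes around the core 10 to 17 higher and 6 to 15 lower. Rescaling libraries to an equal total shifted the median log2 fold change of all genes to 0.14 and gave 7738 higher and 3503 lower genes, 68.7% of calls higher against 47.8% as deposited, and 21 higher and 6 lower genes around the core. The replicate block gave 4272 higher and 4762 lower genes and changed no call among the 10. Deviations of same-numbered libraries from their group means correlated at -0.06, 0.09 and 0.02, and those of differently numbered libraries at -0.14 to 0.11. With 3 libraries per group, these values cannot settle whether the libraries were paired. The 3 libraries per group limit every exact test to p = 0.1 or more.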
